A study of Mus musculus with 6 samples.

Results

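The 10 Notch genes described here are 3 receptors (Notch1, Notch2 and Notch3), 4 ligands (Dll1, Dll4, Jag1 and Jag2) and 3 target genes (Hes1, Hey1 and Heyl). They were chosen by name from the 23367 gene entries of a mouse muscle RNA-seq table, by a rule that uses no measured value but was set with earlier results of these data known, and all 10 were present and passed the filter on low counts. The table came from polyadenylated RNA of the gastrocnemius, a calf muscle, in 6 libraries of wild-type mice of the FVB strain at 5 stages: embryonic day 18.5 (E18.5), postnatal days 2, 14 and 28 (PN2, PN14 and PN28) and the adult at 22 weeks. The E18.5 library held RNA pooled from several male and female mice and the PN2 library RNA pooled from several males, whereas the libraries of PN14 (replicates 1 and 2), PN28 and adult were each made from 1 male. No stage other than PN14 had a replicate, the labels name no treatment or altered allele, and every library had a separate sequencing lane according to its column name, so that lane and stage cannot be told apart.

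Notch receptors are single-pass membrane proteins that are activated by ligands of the Delta-like and Jagged families on a neighbouring cell. Ligand binding exposes the receptor to ADAM proteases and then to gamma-secretase, and the released intracellular domain joins the DNA-binding protein RBPJ and Mastermind co-activators in the nucleus, where genes of the HES and HEY families are turned on. In skeletal muscle the pathway is known for keeping satellite cells, the muscle stem cells, undifferentiated, and in blood vessels for the fate of endothelial and mural cells. All of these cells are present in a whole muscle, and in bulk RNA fewer cells of a type and less RNA per cell cannot be told apart.

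The sequences just upstream of the receptor and ligand genes were rich in G and C. The RefSeq promoter table (GRCm38.p6) matched 7 of the 10 members, with 8 promoters because Dll1 has 2 starts; Hes1, Hey1 and Heyl had no entry. In the 250 bases before each start, a GC box (GGGCGG on either strand) was present upstream of 5 members, Notch1, Notch2, Notch3, Dll4 and Jag2, and in 32.7% of all 32851 promoters in the table. The core of the RBPJ motif (TGGGAA on either strand) was found in none of the 8 member promoters, against 21.6% of all promoters, and the E-box CACGTG in none, against 6.02%. A match of one motif can share end letters with a match of another, and a match or its absence describes the letters of this window only. CG dinucleotides numbered between 13 and 54 per member promoter, with a median of 6 over all promoters.
The upstream windows of the receptor that changed most between PN2 and PN14 (Notch2, chr3:98013288-98013537, plus strand) and of the ligand whose TMM-normalized level differed least between E18.5 and adult (Jag2, chr12:112929496-112929745, minus strand) are shown 5′ to 3′, with GC boxes in capitals.
Notch2: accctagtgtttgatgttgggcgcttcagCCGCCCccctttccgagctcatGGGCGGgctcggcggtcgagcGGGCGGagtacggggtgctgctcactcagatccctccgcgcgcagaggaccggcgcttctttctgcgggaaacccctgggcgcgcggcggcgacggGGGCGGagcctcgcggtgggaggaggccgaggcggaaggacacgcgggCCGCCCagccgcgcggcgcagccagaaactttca
Jag2: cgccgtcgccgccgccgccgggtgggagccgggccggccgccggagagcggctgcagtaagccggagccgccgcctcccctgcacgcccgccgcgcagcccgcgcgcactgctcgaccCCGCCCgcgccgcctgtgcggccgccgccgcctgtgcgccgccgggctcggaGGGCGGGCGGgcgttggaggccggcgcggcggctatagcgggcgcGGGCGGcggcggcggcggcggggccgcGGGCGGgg
Both windows held 5 GC boxes, of which 2 overlap in Jag2, and the Jag2 window had 54 CG dinucleotides, compared with 34 for Notch2.

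Levels are given as FPKM, a measure of fragments counted per gene length and per library total, so that they can be compared between genes. Fold changes are log2 values from edgeR's quasi-likelihood test on counts scaled by TMM, a method that sets most genes equal between libraries. A gene is called changed at a Benjamini-Hochberg adjusted p under 0.05 over 16882 genes and at least a 2-fold difference. Because only PN14 was replicated, the test takes the spread of those mice for all stages. Between 125402932 and 157868359 fragments were counted in a library, and the lowest count of any member in any library was 525. All 10 markers of skeletal muscle fibres were detected in every library, with a summed level of 33314.5 FPKM at E18.5 and 120183.8 FPKM in the adult. PN14 replicate 2 stood apart from replicate 1 in its Schwann cell markers, with a summed level of 1179.2 against 322.4 FPKM. It was also higher in proliferation (45.9 against 18.4 FPKM), endothelial (449 against 288) and mural cell markers (423 against 271). Fibre markers were lower in replicate 2, at 106246.6 against 130481.6 FPKM.

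In FPKM every member was lowest in the adult library. The median FPKM of all genes above 0 was also lower there, at 2.45 against 4.39 at E18.5. How many of all genes were lowest in the adult was not counted. The highest FPKM was at E18.5 for Notch1, Notch2, Notch3, Jag1, Hes1, Hey1 and Heyl, at PN2 for Jag2, and in PN14 replicate 2 for Dll1 and Dll4. After TMM scaling the highest library moved to PN14 for all 3 targets, replicate 1 for Hes1 and Hey1 and replicate 2 for Heyl, it stayed the same for the receptors and ligands, and Hes1 was lowest at PN28 rather than in the adult (12.75 and 12.80 CPM). Summed over the 10 members, the level was 127.8 FPKM at E18.5, 117.7 at PN2, 69.3 and 93.4 for the pair of PN14 mice, 49.3 at PN28 and 34.5 in the adult. The members were neither rare nor abundant messages, lying above between 58.6% and 87.6% of the table's entries across the libraries. Notch3 was the most abundant member at E18.5 and PN2, and Jag2 at PN28 and in the adult. Notch2 was the least abundant member in every library from PN14 onward, whereas Dll1 was the least abundant at E18.5 and PN2.

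**Figure D1:**
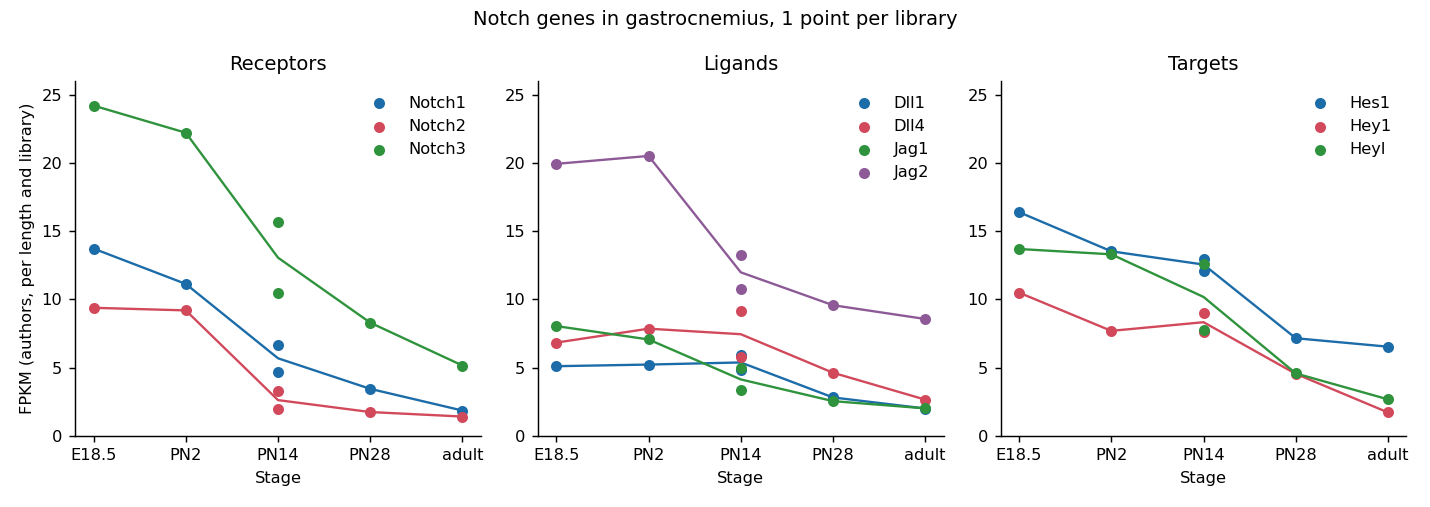
Level of each Notch receptor, ligand and target gene (FPKM, vertical axis) at each stage (horizontal axis, stages evenly spaced and not to scale in time); each point is 1 library and lines join the stage values, using the mean of the 2 PN14 libraries. Notch3 fell from 24.2 FPKM at E18.5 to 5.15 in the adult, and Jag2 stayed the most abundant ligand at 19.9 and 8.56 FPKM.

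Among the receptors, Notch1, the best studied family member and a receptor of satellite cells and endothelium, stood at 13.7 FPKM at E18.5, 11.1 at PN2, 4.71 and 6.65 for the pair of PN14 mice, 3.44 at PN28 and 1.85 in the adult. The adult level was 13.5% of that at E18.5, the lowest remaining share of the 10 members. Notch2, a receptor closely related to Notch1, measured 9.38 FPKM at E18.5 and 9.19 at PN2, then 1.96 and 3.27 for the pair of PN14 mice, 1.74 at PN28 and 1.41 in the adult. In FPKM its 2 highest levels were those before PN14, which also held for Notch1, Notch3, Jag1, Jag2, Hes1 and Heyl. How many of all genes share this order was not counted. Notch3, the receptor typical of vascular mural cells and also present in satellite cells, ran from 24.2 FPKM at E18.5 through 22.2 at PN2, 10.47 and 15.64 for the PN14 pair and 8.29 at PN28 to 5.15 in the adult. The means at PN14 were 5.68 ± 1.37 FPKM for Notch1, 2.62 ± 0.926 for Notch2 and 13.1 ± 3.66 for Notch3 (SD, n = 2).

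Among the ligands, Jag2 was the most abundant in every library, at 19.9 FPKM at E18.5, 20.5 at PN2, 10.7 and 13.2 for the pair of PN14 mice, 9.57 at PN28 and 8.56 in the adult. Jag1, the other Jagged ligand, was at 8.04 FPKM at E18.5, 7.06 at PN2, 3.32 and 4.94 for the pair of PN14 mice, 2.54 at PN28 and 2.01 in the adult. In FPKM both Jagged genes thus had their 2 highest levels before PN14, which after TMM scaling held for Jag2 but not for Jag1. The Delta-like ligands followed another course. Dll4, a ligand characteristic of arterial and sprouting endothelium, was at 6.83 FPKM at E18.5, 7.85 at PN2, 5.78 and 9.11 for the pair of PN14 mice, 4.62 at PN28 and 2.65 in the adult. Dll1, a ligand carried by myogenic cells among others, was at 5.1, 5.22, 4.8 and 5.95 FPKM in the first 4 libraries, then at 2.81 at PN28 and 2 in the adult. In FPKM, for both Delta-like genes, the PN14 replicates lay on either side of the E18.5 and PN2 values, and the PN28 and adult levels lay below all 4 earlier libraries. After TMM scaling this course did not hold, and both PN14 replicates lay above E18.5 and PN2. Dll1 was then at 11.9, 12.1, 19.3 and 20.0 CPM in the first 4 libraries, 12.1 at PN28 and 9.46 in the adult. Dll4 was at 16.0, 18.4, 23.4 and 30.9 CPM, then 20.1 at PN28 and 12.6 in the adult. The PN14 means were 11.98 ± 1.75 FPKM for Jag2, 4.13 ± 1.15 for Jag1, 7.45 ± 2.35 for Dll4 and 5.38 ± 0.813 for Dll1 (SD, n = 2).

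The 3 target genes encode basic helix-loop-helix repressors. Hes1, which is also controlled by signals other than Notch, measured 16.4 FPKM at E18.5, 13.5 at PN2, 12.1 and 13.0 for the pair of PN14 mice, 7.15 at PN28 and 6.53 in the adult. Hey1, a repressor found in endothelium and satellite cells, measured 10.49 FPKM at E18.5, 7.69 at PN2, 7.63 and 9.02 for the pair of PN14 mice, 4.54 at PN28 and 1.71 in the adult. In FPKM the Hey1 level at PN2 lay between the PN14 values, and the level was lower at each later stage. Heyl, a relative of Hey1, was at 13.7 and 13.3 FPKM at E18.5 and PN2, at 7.74 and 12.6 for the pair of PN14 mice, at 4.57 at PN28 and at 2.67 in the adult. The PN14 means were 12.6 ± 0.622 FPKM for Hes1, 8.33 ± 0.983 for Hey1 and 10.2 ± 3.44 for Heyl (SD, n = 2). In FPKM all 10 members were higher in PN14 replicate 2 than in replicate 1, and after TMM scaling 8 of 10 were, with a median log2 difference of 0.28 against -0.00 for all genes.

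The order of levels within a stage can be read against the PN14 spread. At PN14 Notch3, Hes1 and Jag2 formed the top of the order, with means between 11.98 and 13.1 FPKM, and replicate 1 put Hes1 first whereas replicate 2 put Notch3 first. The differences among these 3 means were smaller than the SD of Notch3, 3.66 FPKM. At the other end, Jag1 and Notch2 held the last 2 places in both PN14 replicates.

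From E18.5 to adult, the longest comparison, 5 of the 10 members fell and none rose, namely all 3 receptors and the targets Hey1 and Heyl. In this comparison 44.9% of all genes tested were called, and 23.6% were called as lower. Notch1 changed by -1.87 on the log2 scale (SE 0.230, adjusted p = 0.00212), Notch2 by -1.71 (SE 0.284, adjusted p = 0.00474) and Notch3 by -1.21 (SE 0.263, adjusted p = 0.0115). Hey1 changed by -1.59 (SE 0.215, adjusted p = 0.00264) and Heyl by -1.33 (SE 0.271, adjusted p = 0.00906). Jag1 passed the adjusted p but not the 2-fold limit, at -0.97 (SE 0.232, adjusted p = 0.0157). The other ligands and Hes1 were not called: Jag2 was at -0.19 (SE 0.198, adjusted p = 0.439), Dll1 at -0.33 (SE 0.209, adjusted p = 0.226), Dll4 at -0.34 (SE 0.255, adjusted p = 0.294) and Hes1 at -0.30 (SE 0.214, adjusted p = 0.271). The median over the 10 members was -1.09, compared with -0.05 over all genes tested.

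The size of these changes depends on how libraries are scaled. FPKM and library size alone apply no such correction between libraries. With library size alone the median of all genes shifted to -1.08 from E18.5 to adult, the members' median to -2.11, and all 10 members were called. The distance of the members' median from that of all genes was thus similar under both scalings, whereas the call for the 4 ligands and Hes1 was made with library size only, apart from Jag1, which was also called at -1.05 when genes with a mean under 1 CPM were left out.

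**Figure D2:**
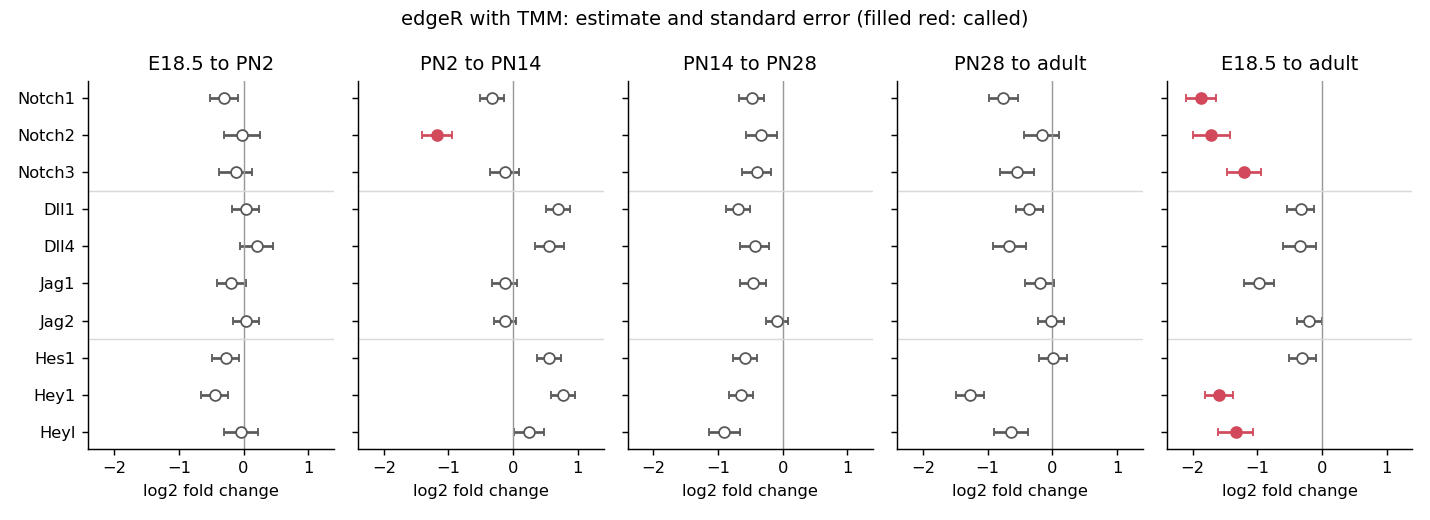
Log2 fold change of each member (horizontal axis) in the 5 stage comparisons, from edgeR with TMM scaling; points are estimates, bars are standard errors, and filled red points are called. Notch2 is the single call from PN2 to PN14, and 5 members are called from E18.5 to adult.

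Between E18.5 and PN2 no member was called by edgeR, and none had an unadjusted p under 0.05. The estimates ran from -0.45 for Hey1 to 0.20 for Dll4, with 0.0296% of all genes called. None of the 6 alternative tests, scalings or filters called a member either. Without a test, 3.44% of genes with at least 1 CPM differed by 2-fold or more between these libraries (CPM, the count scaled to the library total), and no member did.

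Between PN2 and PN14 the members split. Notch2 fell by 1.18 on the log2 scale (SE 0.231, adjusted p = 0.0163) and was the 1 member called, while 23.0% of all genes were called and 11.2% were called as lower. Hey1, at 0.77 (SE 0.186, adjusted p = 0.0289), and Dll1, at 0.70 (SE 0.185, adjusted p = 0.0373), passed the adjusted p with positive estimates but not the 2-fold limit. Dll4 was at 0.56 (SE 0.225), Hes1 at 0.55 (SE 0.189) and Heyl at 0.25 (SE 0.232), and none of these passed. Notch1 was at -0.33 (SE 0.190), and Notch3, Jag1 and Jag2 lay between -0.13 and -0.12. With library size alone the median of all genes moved to -0.66 in this interval, and the estimates turned negative for Dll4 (-0.08), Hes1 (-0.11) and Heyl (-0.39), so that their direction rests on the scaling. Under that scaling Hey1 was at 0.12 (adjusted p = 0.833) and Dll1 at 0.05 (adjusted p = 0.935), and neither passed the adjusted p, whereas Notch2 was called under all 6 alternatives, between -1.81 and -1.18. Without a test, 27.0% of genes differed by 2-fold or more, Notch2 alone among the members. Its log2 difference was -0.96 from PN14 replicate 2 alone and -1.44 from replicate 1 alone, so the 2-fold limit was passed in only 1 of the 2 mice. The PN14 replicates differed from each other by 2-fold or more in 2.74% of genes and in no member.

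Between PN14 and PN28 all 10 members had lower estimates, from -0.90 for Heyl to -0.09 for Jag2, and none was called, with 0.0178% of all genes called. The median estimate was -0.47 for the members and -0.01 for all genes tested. Unadjusted p was under 0.05 for 4 members, Dll1 (-0.70, SE 0.186), Hes1 (-0.58, SE 0.190), Hey1 (-0.64, SE 0.186) and Heyl (-0.90, SE 0.240). Their adjusted p lay between 0.490 and 0.549. The share of all genes with an unadjusted p under 0.05 was not counted for any interval. None of the 6 alternatives called a member. Without a test, 3.30% of genes differed by 2-fold or more, and no member did. Heyl reached a log2 difference of -1.10 with PN14 replicate 2 alone and -0.66 with replicate 1 alone.

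Between PN28 and adult 9 of 10 members had lower estimates and Hes1 was at 0.01, and edgeR called none, with 0.521% of all genes called. Hey1 had the largest estimate, -1.28 (SE 0.214), with an adjusted p of 0.0644. It was called under 4 alternatives, with adjusted p = 0.0456 for library size alone, 0.0158 for DESeq2's Wald test, 0.00168 for edgeR's exact test and 0.0172 without a filter, and was not called with DESeq2's size factors (0.0615) or with a mean of at least 1 CPM (0.0876). Unadjusted p was under 0.05 for 3 members, Hey1, Notch1 (-0.76, SE 0.225) and Dll4 (-0.67, SE 0.257). Without a test, 10.2% of genes differed by 2-fold or more, and Hey1 was the 1 member that did. Over the whole span from E18.5 to adult the same count was 49.6% of genes and 5 members.

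Ratios within a library do not depend on how libraries are scaled, and they showed which receptors and ligands changed relative to each other. Notch4, a receptor largely restricted to endothelium, was added here to complete the receptor family. Of the summed FPKM of the 4 receptors, Notch3 held 46.1% at E18.5 and 50.6% in the adult, and lay between 46.1% and 47.8% in every library but the adult. Over the 3 member receptors alone its share was 51.2% at E18.5 and 52.2% at PN2, 61.1% and 61.2% in the 2 PN14 mice, 61.5% at PN28 and 61.2% in the adult, so the steady share depends on including Notch4. Notch1 held 26.2% at E18.5, 23.5% at PN2, 21.3% and 20.3% for the pair of PN14 mice, 19.8% at PN28 and 18.2% in the adult, a lower share at each later stage. Notch2 held 17.9% and 19.4% at E18.5 and PN2, 8.85% and 9.98% for the pair of PN14 mice, 10.03% at PN28 and 13.9% in the adult. The gap between the PN14 mice was smaller than the gap of either to PN2. Notch4 moved the other way, with 9.82% and 10.2% before PN14 and 22.6%, 22.0% and 22.3% in the PN14 and PN28 libraries, then 17.4% in the adult. Its own log2 estimate from PN2 to PN14 was 0.97 (SE 0.199, adjusted p = 0.0185), just under the 2-fold limit.

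Of the summed FPKM of the 4 ligands, Jag2 held the largest share in each library, 49.9% at E18.5, 50.5% at PN2, 43.6% and 39.8% for the pair of PN14 mice, 49.0% at PN28 and 56.2% in the adult. Dll4 held 17.1% and 19.3% at E18.5 and PN2, 23.5% and 27.4% for the pair of PN14 mice, 23.6% at PN28 and 17.4% in the adult. Dll1 was also highest at PN14, with 19.5% and 17.9% against 12.8% at both earlier stages. Jag1 held 20.2% at E18.5 and between 13.0% and 14.9% from PN14 onward. Both Delta-like shares were thus larger at PN14 than before birth or at PN2 in each of the 2 PN14 mice. Unlike these shares, sums depend on how libraries are scaled. The 4 summed receptors went from 52.5 to 10.2 FPKM between E18.5 and adult, and the summed ligands from 39.9 to 15.2 FPKM. After TMM scaling the summed ligands were at 113.1 CPM at E18.5 and 85.6 CPM in the adult. The 3 member receptors were then at 288.8 and 102.3 CPM.

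**Figure D3:**
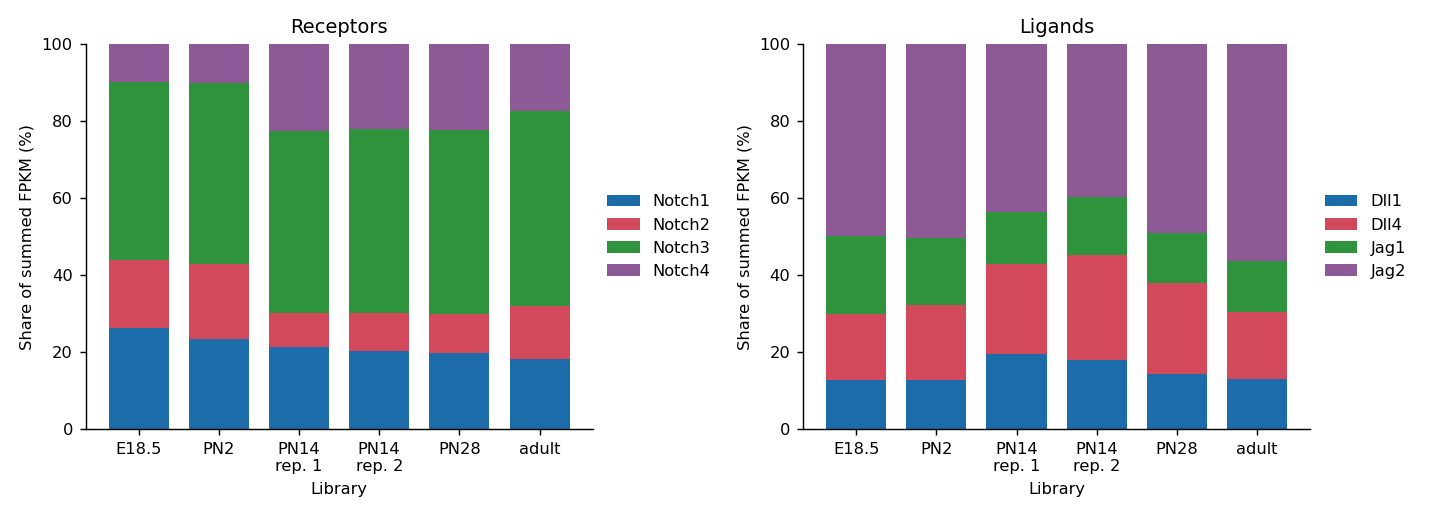
Share of each receptor in the summed FPKM of Notch1 to Notch4 (left) and of each ligand in the summed FPKM of the 4 ligands (right), in percent, for each of the 6 libraries. The Notch2 share was 19.4% at PN2 and 8.85% and 9.98% for the pair of PN14 mice, and Jag2 held the largest ligand share throughout.

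The rest of the pathway was followed through 52 further genes, of which 49 passed the filter on low counts; Dll3, Hes2 and Hes3 had at most 3 counts in any library. From PN2 to PN14 edgeR called 7 of them, 3 that rose and 4 that fell, which is 14.3% against 23.0% of all genes. Neurl1a, a ubiquitin ligase for Notch ligands, rose by 2.20 on the log2 scale (SE 0.349, adjusted p = 0.0101), with 12.8 FPKM at PN2 and 41.9 and 32.2 at PN14. Bhlhe41, a clock-related repressor distantly related to the HES genes, rose by 3.23 (SE 0.280, adjusted p = 0.00366). Helt, another HES relative, had 0 counts at E18.5, 1 at PN2 and between 78 and 112 in the 4 later libraries. Dlk1, a Delta-like protein of embryonic muscle and an imprinted gene, fell by 4.40 (SE 0.642, adjusted p = 0.00838), from 615 FPKM at PN2 to 8.7 and 30.0 at PN14 and 0.22 in the adult. Its relative Dlk2 fell by 1.73, Mfap2, a microfibril protein that can bind Notch ligands, by 1.69, and Numbl, a relative of the Notch inhibitor Numb, by 1.24. The other microfibril protein, Mfap5, was at -0.87 (adjusted p = 0.0293) and passed no 2-fold limit.

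From E18.5 to adult 21 of the 49 pathway genes were called, 7 that rose and 14 that fell, with a median of -0.19. This is 42.9% of the list against 44.9% of all genes tested, a share near the background. Of the 9 receptor proteases, Psenen, a gamma-secretase subunit, rose by 1.49 (SE 0.206, adjusted p = 0.00277) and the other 8 were not called, among them Adam10 (-0.80), Aph1a (-0.11) and Furin (0.16). None of the 9 genes of the nuclear complex and its corepressors was called, although 4 passed the adjusted p alone. Rbpj, the DNA-binding partner of the Notch intracellular domain, was at -0.80 (SE 0.205, adjusted p = 0.0195), with 22.3 FPKM at E18.5 and 6.29 in the adult, Ep300, a histone acetyltransferase, at 0.92, and Snw1, a splicing and transcription cofactor, at 0.89.

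The enzymes that add sugars to the receptors went both ways from E18.5 to adult, with Pofut1, the O-fucosyltransferase, at -1.50 and Lfng, a fringe enzyme, at -1.35, both called, and the related Rfng called at 1.28; Poglut1, the O-glucosyltransferase, was at -0.01. Of the ubiquitin ligases for ligand uptake, Neurl1a rose by 3.24 and Mib1 by 2.08, Neurl1b fell by 1.14, and Mib2 was at 0.37 and not called. Among the inhibitors and turnover factors 4 of 9 fell, Numbl (-2.37), Dtx1 (-2.72), Dtx4 (-2.37) and Nrarp (-1.67), whereas Fbxw7 (0.77), Itch (-0.09) and Dtx3 (-0.01) were not called. Nrarp is a feedback inhibitor that Notch signals induce, and its level was 14.2 FPKM at E18.5, 9.79 at PN2, 7.22 and 9.74 for the pair of PN14 mice, 4.95 at PN28 and 2.20 in the adult. Of the other HES and HEY relatives, Hes6 (-1.78) and Hey2 (-1.83) fell, and Bhlhe40 (1.97), Bhlhe41 (5.02) and Helt were called as rising. All 5 called genes among the other receptors and ligands fell, namely Dlk1, Mfap2 (-5.41), Dlk2 (-4.45), Dner (-4.34) and Mfap5 (-1.62). Lfng, Psenen, Rbpj, Dtx1, Dtx4 and Nrarp were named after their values were seen.

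With library size alone the split of these calls moved, to 4 that rose and 30 that fell from E18.5 to adult and to 3 and 12 from PN2 to PN14. All 21 and all 7 genes kept their sign under that scaling, and 18 and 7 of them were still called. The 3 calls lost were all of genes that rose, Psenen (0.47, adjusted p = 0.300), Rfng (0.26, adjusted p = 0.631) and Bhlhe40 (0.94, under the 2-fold limit). In the shorter intervals edgeR called no pathway gene from E18.5 to PN2, where 5 had an unadjusted p under 0.05 and no alternative called any. It also called none from PN14 to PN28, where 6 had an unadjusted p under 0.05 and library size alone and the exact test called 1 each. How many of all genes had such an unadjusted p was not counted. From PN28 to adult edgeR called Mib1, which rose by 2.12 (SE 0.203, adjusted p = 0.0367) from 4.65 to 18.3 FPKM, and Mfap2, which fell by 2.69 (SE 0.279, adjusted p = 0.0398).

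**Figure D4:**
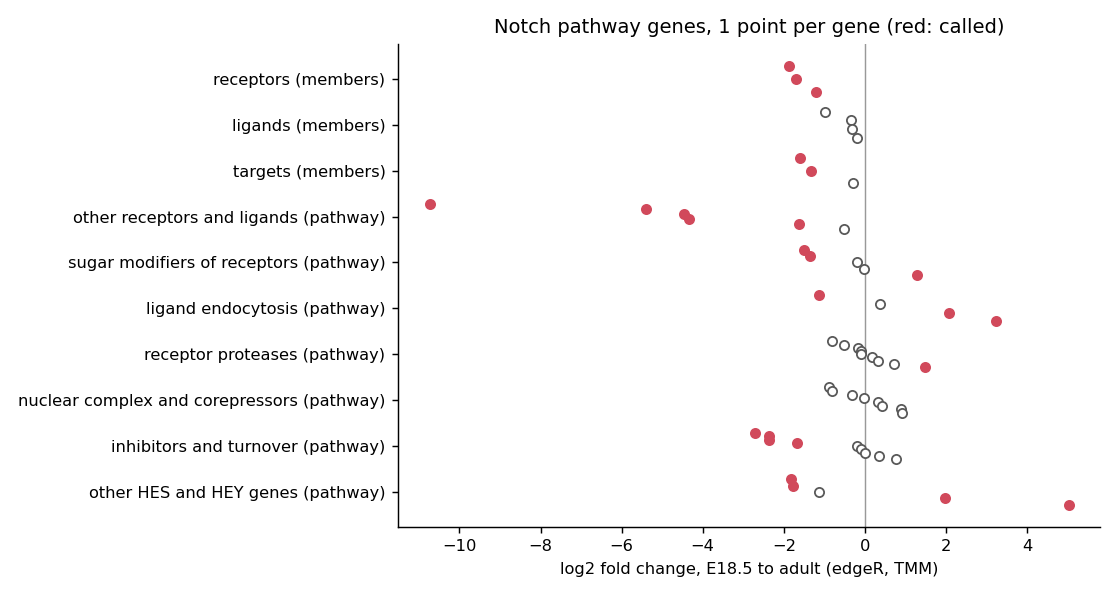
Log2 fold change from E18.5 to adult (horizontal axis, edgeR with TMM scaling) for the members and the other pathway genes, grouped by role; each point is 1 gene, red points are called, and genes with at most 3 counts at either stage, such as Helt, are left out. The 3 receptors lie between -1.87 and -1.21, and the proteases and nuclear factors lie mostly within 1 of 0.

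Levels of cell type markers moved in the same libraries. The counts of markers called stand beside 23.0% of all genes called from PN2 to PN14, and 11.2% called as lower. From E18.5 to adult these shares were 44.9% and 23.6%. For endothelial cells, 4 of 10 markers rose from PN2 to PN14 (Tie1, Emcn, Egfl7 and Esam) with a median of 0.90, and all 10 had lower estimates in each of the later intervals, where edgeR called none (5 and 7 with an unadjusted p under 0.05). From E18.5 to adult none of the 10 was called, with a median of -0.39. After TMM scaling their sum was 596 CPM at E18.5 and 451 CPM in the adult. In FPKM their summed level was 293 and 300 at E18.5 and PN2, 288 and 449 for the pair of PN14 mice, 202 at PN28 and 112 in the adult. The 6 libraries fell in this same order for the FPKM of both Delta-like ligands, Dll4 and Dll1. After TMM scaling Dll4 still shared the order of the endothelial sum. Dll1 did not, with PN28 at 12.12 CPM just under PN2 at 12.15. For mural cells, 2 of 9 markers rose from PN2 to PN14 (Rgs5 and Higd1b), and from E18.5 to adult 2 rose and 2 fell; their summed level lay between 158 and 423 FPKM.

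For satellite cells and myoblasts, 3 of 8 markers fell from PN2 to PN14 (Myf5, Cdh15 and Msc) and 6 fell from E18.5 to adult, with a median of -2.22. Their summed level was 172 and 153 FPKM at E18.5 and PN2, 58.4 and 77.3 for the pair of PN14 mice, 45.5 at PN28 and 35.6 in the adult, with the 2 highest values before PN14. In FPKM the same was true of the 3 receptors, both Jagged ligands, Hes1 and Heyl and of the fibroblast, proliferation, macrophage and cartilage and tendon lists, and after TMM scaling it was true of Notch1, Notch2 and Jag2 among the members. No endothelial, mural or satellite cell marker was at 0 in any library. All 10 proliferation genes and 5 of 8 fibroblast markers fell from E18.5 to adult, where 44.9% of all genes were called and 23.6% as lower. Among 6 Schwann cell markers 2 rose, among 6 macrophage markers 1 rose and 2 fell, and among 6 cartilage and tendon markers 5 fell. Of the 10 fibre markers only 2 were called as rising, although all 10 had higher estimates, with a median of 2.93. Ibsp, a bone matrix gene in the cartilage and tendon list, had 10118 and 10633 counts at E18.5 and PN2 and at most 1 afterwards. The part of these cell types in the levels of the Notch genes was not tested.

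**Figure D5:**
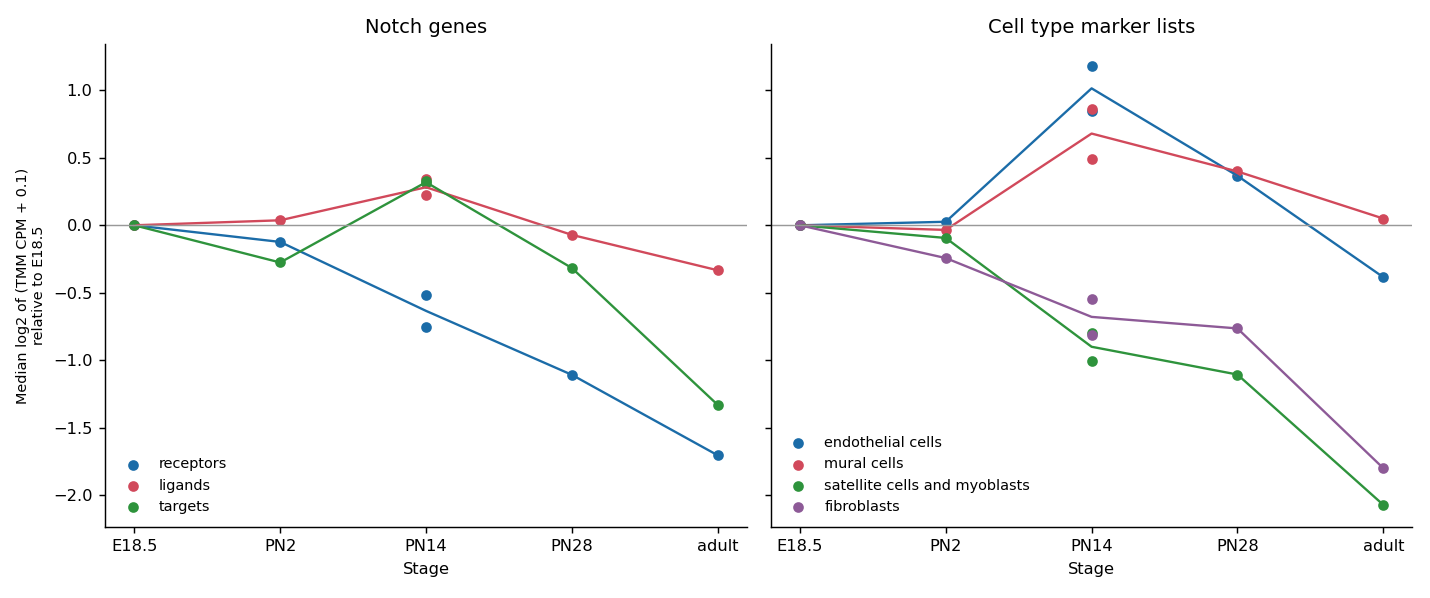
Median log2 level relative to E18.5 (log2 of TMM-normalized CPM plus 0.1) for the Notch receptors, ligands and targets (left) and for 4 cell type marker lists (right) at each stage, evenly spaced; each point is 1 library and lines join stage means. At PN14 the endothelial list lay 0.85 and 1.18 above E18.5, the ligands 0.22 and 0.34 above, and the receptors at -0.75 and -0.51.

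For each member, the gene outside the set with the most similar profile was found from log2 TMM-normalized CPM centred over the 6 libraries, among 13005 genes with a mean of at least 1 CPM. Dll4 had the closest match of all, Ecscr, an endothelial surface protein gene, with a root mean square difference of 0.0221 log2 units, followed by Pecam1, an endothelial marker, at 0.0871. Jag2 lay 0.0231 from Asb7, Jag1 0.0359 from Pan2, Notch2 0.0430 from Dlg5, and Notch3 0.0433 from Yes1. For Heyl the nearest gene was Slc38a6 at 0.0513, for Dll1 Sh2d3c at 0.0536, for Notch1 Wdr1 at 0.0653 and for Hes1 Prom1 at 0.0781. Hey1 had the most distant nearest gene, Tmc5 at 0.147. With 6 libraries, 13005 candidates and a shared course of development, small distances of this kind are a description of the profiles.

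In mm9 (GENCODE M1) the receptors lie at chr2:26313423-26372183 (Notch1, minus strand), chr3:97817461-97954290 (Notch2, plus strand) and chr17:32257765-32303825 (Notch3, minus strand). The ligands lie at chr17:15504318-15513836 (Dll1, minus), chr2:119151520-119161698 (Dll4, plus), chr2:136907192-136942380 (Jag1, minus) and chr12:114146801-114167706 (Jag2, minus). The targets lie at chr16:30064470-30067882 (Hes1, plus), chr3:8663362-8667039 (Hey1, minus) and chr4:122910799-122927118 (Heyl, plus).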

How the data were processed

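The authors aligned paired-end reads to mm9 with TopHat 2.0.5, used RSEM on RefSeq gene models to count fragments, and deposited expected counts, which were whole numbers and not normalized, and FPKM values to 2 decimals, for 23367 entries in 6 libraries. The FPKM values deposited by the authors are scaled per gene length and per library, so a large share of fibre transcripts would lower all other genes. Expected counts were analysed in R 4.3.3 with edgeR 4.0.16 (TMM, filterByExpr with stage as group, 16882 genes, quasi-likelihood test, Benjamini-Hochberg adjustment for each comparison). All libraries entered a single fit with 5 stages and 1 residual degree of freedom. The common biological coefficient of variation was 0.188, with 4.86 prior degrees of freedom. The p-values therefore rest on the spread between the 2 PN14 mice, moderated by a trend over all genes. No spread within the other stages enters them. Differences of 2-fold or more with no test used log2 of TMM-normalized CPM plus 0.1 and at least 1 CPM in at least 1 compared stage. A count of 3 corresponded to between 0.0131 and 0.0295 CPM. Alternatives were library size alone, DESeq2's size factors, DESeq2's Wald test (1.42.0), edgeR's exact test, no filter, a mean of at least 1 CPM, another pseudocount or no floor for the 2-fold counts, each PN14 library left out, and other forms of the shares. The test was tested on simulated data. Further pathway genes named were those called from PN2 to PN14 and up to 3 per role with the highest mean CPM, of which 1 is not reported here; the 2 genes nearest to each member were found by root mean square difference. Members and lists (endothelial, mural, satellite cell, fibroblast, proliferation, Schwann cell, macrophage, cartilage and tendon, and fibre markers, and the pathway) were chosen with earlier results of these data known. Figures and sequences were made with Python 3.11.15, pandas 2.3.3 and matplotlib 3.10.9.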

Additional observations from a re-analysis of the deposited data

How the results depend on the processing

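No paired analysis was possible because only PN14 had more than 1 library. Under the 6 alternative tests, scalings and filters, 10 of the members' log2 values gained a call and 6 reversed. The rest kept their direction and side of the threshold. Library size alone, which shifts all genes, gave 10 members called from E18.5 to adult (5 with TMM) and 34 pathway genes (21 with TMM), 15 pathway genes from PN2 to PN14 (7), 5 from PN28 to adult (2) and 1 from PN14 to PN28 (0), and 10 members past 2-fold with no test from E18.5 to adult and 1 from PN14 to PN28. It reversed Dll4 (-0.075), Hes1 (-0.11) and Heyl (-0.39) from PN2 to PN14 and Hes1 from PN28 to adult (-0.13), where Hes1 was also at -0.0022 without a filter and -0.012 with a mean of at least 1 CPM. From PN28 to adult, 1 member (Hey1) was called with library size alone, DESeq2's Wald test, edgeR's exact test and no filter; pathway calls there were 5 with DESeq2's Wald test, 8 with edgeR's exact test, 7 without a filter and 0 with a mean of at least 1 CPM, and the exact test gave 1 from PN14 to PN28. The causes were not tested. Leaving out a PN14 library leaves no residual degree of freedom, so these are values with no test: between 0 and 1 members passed 2-fold from PN2 to PN14 (0 without replicate 1) and between 0 and 1 from PN14 to PN28 (1 without replicate 1). With Notch4 left out of the receptors, Notch3 held 51.2% at E18.5 and 61.2% in the adult, and Notch2 19.8% and 16.8%. All stages other than PN14 rest on a single library.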
